A study of Mus musculus with 8 samples.

Results

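Hearts with Mettl3 deleted in cardiomyocytes were compared with WT hearts for the muscle ankyrin repeat genes Ankrd1, Ankrd2 and Ankrd23. The Xin actin-binding repeat genes Xirp1 and Xirp2 were followed too, as were Csrp3 and Nrap, whose proteins work beside them at the same sites. These genes were taken by gene symbol, 7 of the 23045 genes in the deposited table. Ankrd1 and Xirp2 rose in Mettl3 KO hearts by 1.41-fold and 1.24-fold. Xirp1 lay higher in every Mettl3 KO library than in any WT library, by a narrow gap of 12 normalized read counts, without passing the test. Ankrd23, Csrp3 and Nrap overlapped between the genotypes, and Ankrd2 was at the limit of detection.

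Total RNA of 4 WT and 4 Mettl3 KO mouse heart samples had been sequenced, 1 library per sample. All mice carried Mettl3 alleles flanked by loxP sites (Mettl3lox/lox). The Mettl3 KO mice carried in addition a positive alphaMHC-MerCreMer transgene (Mettl3lox/lox:alphaMHC-MerCreMerpos), a tamoxifen-inducible Cre recombinase under the alpha myosin heavy chain promoter, which is active in cardiomyocytes. Per the study's methods, mice of both genotypes received tamoxifen on 7 consecutive days at 100 µg per g body weight from an age of 10 to 16 weeks. The WT mice had no Cre, so effects of Cre and of the loss of Mettl3 cannot be told apart here, and heart cells other than cardiomyocytes keep Mettl3.

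Hearts under mechanical load rely on proteins that sit where force is borne, at the titin spring in the I-band, at the Z-disc and at the intercalated disc. The muscle ankyrin repeat proteins bind the N2A region of titin and also enter the nucleus, and Ankrd1 is a classic transcript of stretched or failing myocardium. The Xin proteins bind actin and link it to the adherens junctions of the intercalated disc. Csrp3 encodes muscle LIM protein, a Z-disc protein, and Nrap encodes nebulin-related anchoring protein, which takes part in myofibril assembly and in anchoring actin at the intercalated disc.

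The reads behind the values were recovered from the spacing of low values and numbered between 2731618 and 3061260 in the WT libraries. In the Mettl3 KO libraries they numbered between 2631904 and 3052839. For Mettl3, the targeted gene, normalized read counts were 105, 133, 118 and 107 across WT libraries, against 74, 68, 69 and 78 across Mettl3 KO libraries. The groups did not overlap and the log2 fold change was -0.67 ± 0.10 (SE, adjusted p = 0.000184, limma). In bulk tissue, fewer cells of a type and less RNA per cell cannot be told apart. The 8 cardiomyocyte markers listed summed to 22651 to 23953 in WT and 21115 to 23784 in Mettl3 KO libraries, with 0 members higher and 1 lower (Ryr2). Ryr2 made up 37.1% to 44.5% of these sums. It alone had a log2 fold change below 0 (-0.23), and the median of the 8 was 0.05, with a highest of 0.10 (Actc1). The 8 fast skeletal muscle markers summed to 33 to 51 in WT and 30 to 41 in Mettl3 KO libraries, with no single value above 14. Of these Tnni2 was called lower, at 5.00 ± 2.16 in WT and 1.00 ± 0.816 in Mettl3 KO libraries, and 0 were called with voom weights.

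Promoters are shown first for the 2 genes that rose and for Csrp3, which had the smallest log2 fold change of those tested, as a contrast. Each is the 300-base window from 250 bases before to 50 bases after a RefSeq start site of GRCm38.p6, an earlier build than the mm39 of the deposited table, and is written in the gene's own direction. RefSeq windows were found for 6 of the 7 genes (not for Xirp1), 8 windows in all, since Ankrd23 and Csrp3 have 2 each. Capitals mark letters found on either strand for 5 motifs: GGAATG (the core bound by TEAD factors), GATAA (GATA factors), TATAA (the TATA box), and the MEF2 and CArG consensus motifs, the CArG box being bound by SRF. The windows are chr19:36119795-36120094, minus strand, for Ankrd1, chr2:67445752-67446051, plus strand, for Xirp2 and chr7:48848002-48848301, minus strand, for Csrp3 (1 of 2 starts).
Ankrd1: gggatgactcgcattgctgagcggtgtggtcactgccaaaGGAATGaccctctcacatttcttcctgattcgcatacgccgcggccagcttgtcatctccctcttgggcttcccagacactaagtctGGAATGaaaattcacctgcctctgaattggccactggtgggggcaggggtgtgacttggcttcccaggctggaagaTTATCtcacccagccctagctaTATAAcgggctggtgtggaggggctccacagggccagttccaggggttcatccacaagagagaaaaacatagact
Xirp2: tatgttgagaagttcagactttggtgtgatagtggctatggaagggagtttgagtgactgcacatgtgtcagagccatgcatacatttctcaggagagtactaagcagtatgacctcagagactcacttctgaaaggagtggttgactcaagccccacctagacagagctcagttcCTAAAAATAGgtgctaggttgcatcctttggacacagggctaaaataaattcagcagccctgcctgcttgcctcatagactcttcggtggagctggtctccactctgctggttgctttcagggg
Csrp3: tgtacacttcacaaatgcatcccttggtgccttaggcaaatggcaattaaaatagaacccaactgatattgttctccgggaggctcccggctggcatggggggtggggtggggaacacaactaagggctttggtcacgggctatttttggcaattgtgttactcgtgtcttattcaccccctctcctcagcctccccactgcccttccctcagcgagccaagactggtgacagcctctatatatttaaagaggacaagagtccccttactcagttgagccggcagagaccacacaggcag

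The Ankrd1 window held GGAATG 2 times, GATAA once on the opposite strand (read as TTATC) and TATAA once. These lay 210, 123, 47 and 25 bases before the start site. The Xirp2 window held 1 MEF2 match, 74 bases before the start site, and the Csrp3 window held no match of the 5. Of 32851 promoter windows of the same length, 14.7% held GGAATG, 25.4% GATAA, 24.9% TATAA, 3.19% the MEF2 motif and 1.63% the CArG motif. A match describes the letters only. Among the other genes, Ankrd2 had TATAA, both Ankrd23 windows had GGAATG and 1 had GATAA, and Nrap had no match.

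Values below are normalized read counts, scaled for depth with DESeq2 and rounded by the authors. Genes whose mean value reached 1 were tested on log2(value + 1) with limma, and a gene was called at a Benjamini-Hochberg adjusted p under 0.05. This left 20313 genes, among them 6 of the 7. Across all tested genes 7.91% were called, and 4.72% were called higher in Mettl3 KO hearts. Of the 6 genes, 2 were called higher and 0 lower. Every Mettl3 KO value lay above every WT value for 3 of the 6, which was true of 6.46% of all tested genes. All 6 log2 fold changes were above 0 (that of Csrp3 fell below 0 under 1 scaling, given with the cell markers). The median of the 6 was 0.15, against -0.0086 for all genes tested and 0.05 for the 8 cardiomyocyte markers. An unadjusted p under 0.05 was seen for 4 of the 6 and for 20.6% of all genes. Since the genes had been chosen with earlier results of these data known, these counts are descriptions.

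**Figure D1:**
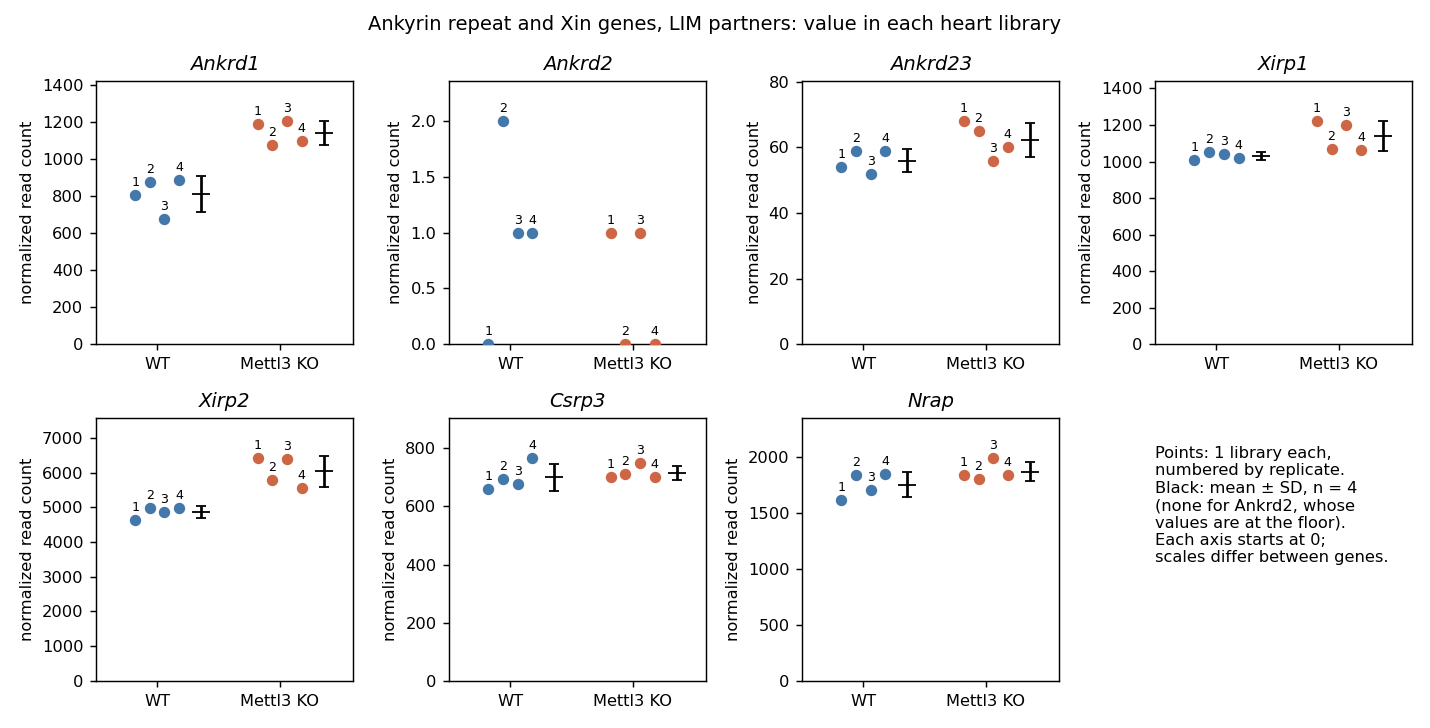
Normalized read count of each gene in each library (points numbered by replicate, WT in blue, Mettl3 KO in orange), with mean ± SD of n = 4 in black except for Ankrd2. Ankrd1, Xirp1 and Xirp2 show no overlap between the genotypes, with a gap of 187 for Ankrd1, 567 for Xirp2 and 12 for Xirp1. The gap of Xirp1 is smaller than its counting error.

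Ankrd1 (ENSMUSG00000024803, mm39 chr19:36089361-36097499, minus strand), encoding the cardiac ankyrin repeat protein, showed the largest log2 fold change of the 6. The WT libraries held 808, 878, 677 and 889 normalized read counts of it, the Mettl3 KO libraries 1192, 1076, 1206 and 1099. The lowest Mettl3 KO value lay 187 above the highest WT value, and WT replicate 3 was the lowest library of all. Means were 813 ± 97.5 in WT and 1143 ± 65.3 in Mettl3 KO hearts (SD, n = 4 each). The log2 fold change was 0.50 ± 0.06 (SE), or 1.41-fold with a 95% interval of 1.29 to 1.55 (adjusted p = 2.58e-05, limma). In recovered reads, before scaling, WT libraries had 706 to 947 and Mettl3 KO libraries 1075 to 1181, so the groups were apart without the scaling too.

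Ankrd23 (ENSMUSG00000067653, mm39 chr1:36569269-36575964, minus strand), the diabetes-related ankyrin repeat protein gene, was present at a far lower level per kb than Ankrd1, as given below. The WT libraries had 54, 59, 52 and 59, the Mettl3 KO libraries 68, 65, 56 and 60. Mettl3 KO replicate 3 lay within the WT range, the others above it. The log2 fold change of 0.15 ± 0.12 (SE) had a 95% interval of -0.10 to 0.40 and did not pass (adjusted p = 0.556, limma). The SD between libraries, 3.56 in WT and 5.32 in Mettl3 KO, was no larger than the counting error alone of 7.39 and 7.97.

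Ankrd2 (ENSMUSG00000025172, mm39 chr19:42024439-42033549, plus strand), known mainly from slow skeletal muscle, was listed at 0, 2, 1 and 1 across the WT libraries and at 1, 0, 1 and 0 across the Mettl3 KO libraries. All 8 libraries were at or under the 3 reads that a count of 0 allows. It failed the filter on low values and was not tested, and no fold change is given.

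Xirp2 (ENSMUSG00000027022, mm39 chr2:67004178-67356959, plus strand) encodes the larger Xin protein, made in heart and skeletal muscle. The 4 WT libraries stood at 4623, 4980, 4855 and 4981, and the 4 Mettl3 KO libraries at 6426, 5785, 6389 and 5548. The groups were 567 apart at their nearest, and Mettl3 KO replicates 1 and 3 stood above replicates 2 and 4. Means were 4860 ± 169 in WT and 6037 ± 439 in Mettl3 KO hearts (SD, n = 4 each). The log2 fold change was 0.31 ± 0.04 (SE), or 1.24-fold with a 95% interval of 1.17 to 1.32 (adjusted p = 2.80e-05, limma). Recovered reads were 4746 to 5371 in WT and 5797 to 6111 in Mettl3 KO libraries, again without overlap.

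Xirp1 (ENSMUSG00000079243, mm39 chr9:119842821-119852664, minus strand), encoding Xin, reached 1007, 1053, 1039 and 1020 across the WT libraries against 1221, 1071, 1198 and 1065 across the Mettl3 KO libraries. As for Xirp2, Mettl3 KO replicates 1 and 3 were high, while replicates 2 and 4, at 1071 and 1065, lay just above the highest WT library at 1053. This gap of 12 was smaller than the counting error alone, 31.7 in WT and 34.1 in Mettl3 KO libraries. The log2 fold change was 0.14 ± 0.05 (SE), with a 95% interval of 0.05 to 0.24, an unadjusted p of 0.00603 and an adjusted p of 0.0659 (limma). Xirp1 passed in 4 of 21 alternatives (adjusted p from 0.0054 to 0.0460), among them the one without Mettl3 KO replicate 4 (adjusted p = 0.0388). Without Mettl3 KO replicates 1 and 3 its log2 fold change was 0.05 (adjusted p = 0.591, limma). In recovered reads, before scaling, the groups overlapped, at 972 to 1136 in WT and 1083 to 1146 in Mettl3 KO libraries.

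Nrap (ENSMUSG00000049134, mm39 chr19:56308467-56378469, minus strand) was counted at 1616, 1840, 1702 and 1844 across WT hearts, and at 1842, 1805, 1991 and 1835 across Mettl3 KO hearts. WT replicates 2 and 4 lay among the Mettl3 KO values, and WT replicates 1 and 3 below them. The log2 fold change was 0.10 ± 0.04 (SE), with a 95% interval of 0.0034 to 0.19 and an adjusted p of 0.223 (limma). With 1 library left out it ran from 0.06 (without WT replicate 1, and also without Mettl3 KO replicate 3) to 0.12 (without WT replicate 2, and also without WT replicate 4).

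Csrp3 (ENSMUSG00000030470, mm39 chr7:48480146-48497781, minus strand) was found at 661, 695, 676 and 767 for WT, and at 701, 710, 749 and 700 for Mettl3 KO hearts. WT replicate 4 was the highest of all 8, and the Mettl3 KO libraries fell inside the WT range. The log2 fold change of 0.033 ± 0.05 (SE) had a 95% interval of -0.07 to 0.14 (adjusted p = 0.793, limma). Its longest coding transcript is short, at 899 bases, with 778 normalized read counts per kb in WT hearts. Removing duplicates of single-end reads can hold down such a gene, and whether this hid a change was not tested. With 1 library left out it ran from 0.0063 (without WT replicate 1) to 0.08 (without WT replicate 4), and it was called in none of these fits.

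**Figure D2:**
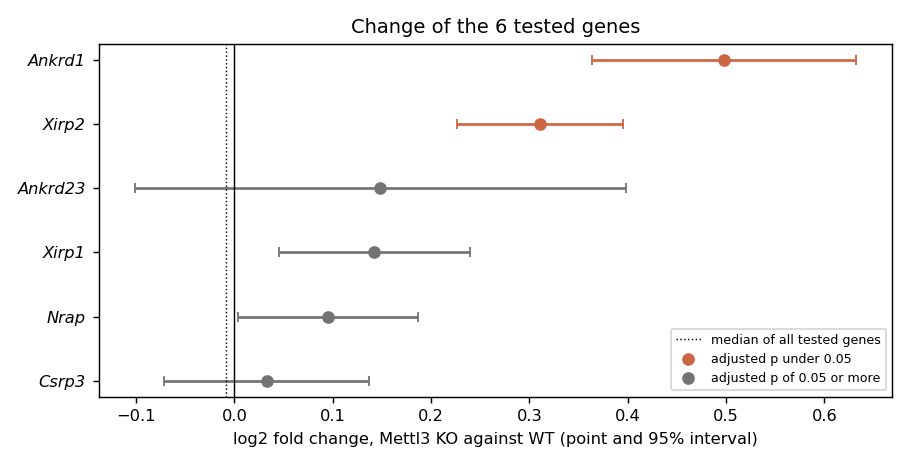
Log2 fold change of the 6 tested genes with 95% intervals (x axis), orange where the adjusted p was under 0.05, with the median of all tested genes as a dotted line. The intervals of Ankrd1, Xirp2, Xirp1 and Nrap lie above 0, of which those of Ankrd1 and Xirp2 belong to genes that passed the test, and the intervals of Ankrd23 and Csrp3 include 0.

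Levels were compared between the genes only per kb of transcript. Over the longest coding transcript of each gene in an earlier mouse annotation, WT levels were 778 ± 52.2 normalized read counts per kb for Csrp3, 406 ± 14.1 for Xirp2, 402 ± 48.3 for Ankrd1, 318 ± 20.2 for Nrap, 176 ± 3.48 for Xirp1 and 24.6 ± 1.56 for Ankrd23 (SD, n = 4). Ankrd2 was at 0 to 1.76 per kb. On this length Xirp2 and Ankrd1 overlapped in WT hearts, and in Mettl3 KO hearts Ankrd1 was at 566 ± 32.3 per kb (lowest library 533) and Xirp2 at 504 ± 36.6 (highest library 536). The places of Csrp3 and Ankrd1 rest on the length used. Over all annotated exons together, which for Csrp3 span 2671 rather than 899 bases and for Ankrd1 2886 rather than 2020, the WT level was 262 ± 17.6 per kb for Csrp3 and 282 ± 33.8 for Ankrd1. On that length Ankrd1 lay below Xirp2 without overlap in both genotypes, with its highest library at 308 against a lowest of 386 in WT, and at 418 against 463 in Mettl3 KO hearts.

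Whether relatives differ in their response was asked from their log2 ratio within each library, by an exact two-sided permutation test over all 70 assignments of genotype, whose smallest p is 0.0286. The log2 ratio of Xirp2 to Xirp1 was 2.20, 2.24, 2.22 and 2.29 across WT libraries, against 2.39, 2.43, 2.41 and 2.38 across Mettl3 KO libraries. The groups did not overlap, and the mean was 0.17 higher in Mettl3 KO hearts (exact p = 0.0286, the smallest possible). The high values of Mettl3 KO replicates 1 and 3, seen in both genes, were not seen in their ratio. The log2 ratio of Ankrd23 to Ankrd1 was -3.88, -3.87, -3.68 and -3.89 for WT, against -4.11, -4.03, -4.40 and -4.17 for Mettl3 KO libraries, again without overlap. Its mean fell by 0.35 (exact p = 0.0286). The log2 ratio of Nrap to Csrp3 overlapped, at 1.26 to 1.40 in WT and 1.34 to 1.41 in Mettl3 KO libraries, with a difference of 0.06 (exact p = 0.143). Of 5 ratios planned, the other two rest on Ankrd2 and cannot be interpreted, since that gene was at the floor. Adjusted over all 5 as planned, no ratio passed, with an adjusted p of 0.0714 for the first 2 and 0.179 for Nrap to Csrp3 (exact permutation test, Benjamini-Hochberg). Adjusted over the 3 ratios without Ankrd2, a choice made after its values were seen, the first 2 had an adjusted p of 0.0429 by the same exact test.

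**Figure D3:**
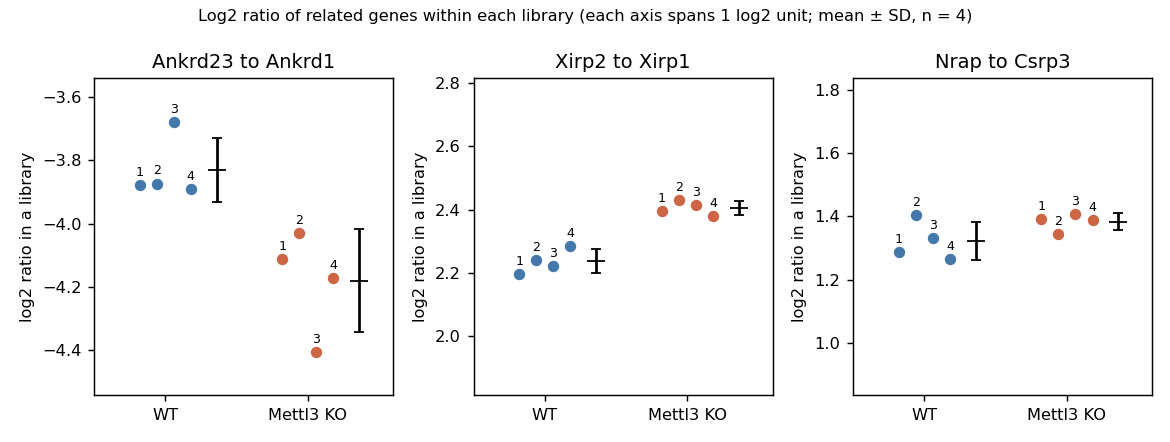
Log2 ratio of related genes in each library (points numbered by replicate, mean ± SD, n = 4 in black), on axes that each span 1 log2 unit and do not start at 0. The ratios Ankrd23 to Ankrd1 and Xirp2 to Xirp1 do not overlap between the genotypes, and Nrap to Csrp3 overlaps.

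Libraries of one genotype also differed from each other. After the genotype means were taken out, Xirp1 and Xirp2 deviated together over the 8 libraries (Pearson r = 0.93), as did Csrp3 and Nrap (r = 0.81), while the lowest r, 0.06, was between Ankrd23 and Xirp1. These are descriptions over libraries that share depth and scaling. WT replicate 1 and Mettl3 KO replicate 4 lay below their group mean for all 6 genes. In normalized read counts, Mettl3 KO replicates 1 and 3 were the highest of their group for Ankrd1, Xirp1 and Xirp2. They were also the Mettl3 KO libraries with the fewest recovered reads, 2631904 and 2777004, and with the largest factors from reads to values, 1.11 and 1.05. In recovered reads, before scaling, this order was not seen: Mettl3 KO replicates 1 to 4 had 1075, 1088, 1153 and 1181 reads of Ankrd1, 5797, 5851, 6111 and 5964 of Xirp2 and 1101, 1083, 1146 and 1145 of Xirp1. Such reads are not corrected for depth. Without these 2 libraries, left out after their values were seen, the log2 fold change was 0.43 for Ankrd1 (adjusted p = 0.0162) and 0.22 for Xirp2 (adjusted p = 0.0038, limma).

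**Figure D4:**
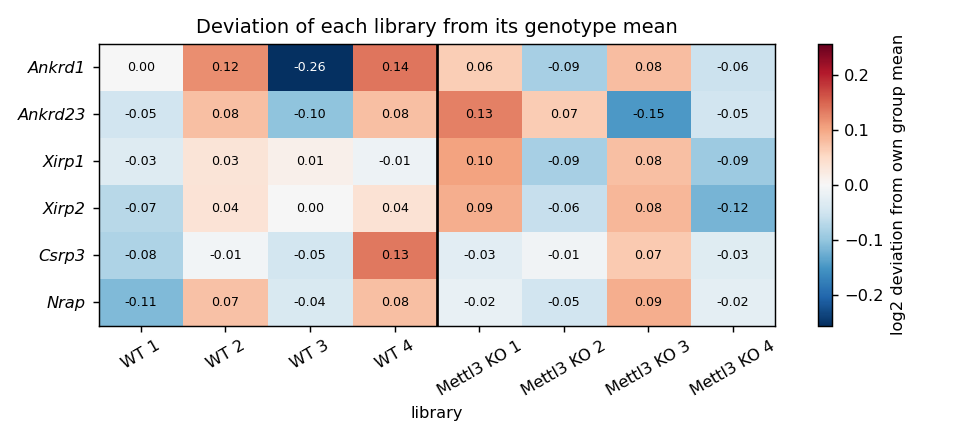
Log2 deviation of each library (columns) from the mean of its genotype for the 6 tested genes (rows), red above and blue below the mean. Xirp1 and Xirp2 share the pattern of Mettl3 KO replicates 1 and 3 above replicates 2 and 4, and the lowest deviation, -0.26, is that of Ankrd1 in WT replicate 3.

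Markers listed for other cells moved with genotype too. All 5 atrial markers (Myl7, Sln, Bmp10, Nppa and Dkk3) were called higher (4 with voom weights), with sums of 211 to 404 in WT and 617 to 1329 in Mettl3 KO libraries, and Bmp10 was listed at 0 in all 4 WT libraries and in Mettl3 KO replicate 1. Myl7 and Sln, too, lay within the WT range in Mettl3 KO replicate 1, at 23 and 10, so that 3 of the 5 overlapped between the genotypes. Nppa and Dkk3 did not follow them in that library, at 452 and 132 against highest WT values of 292 and 84. The sums were 617, 869, 993 and 1329 in Mettl3 KO replicates 1 to 4. Of 8 fibroblast markers 7 were called higher and 0 lower, with sums of 3648 to 4172 and 4711 to 5671. Of 8 endothelial markers 0 were called higher and 3 lower, with sums of 4294 to 4512 and 3728 to 4090. Of 6 smooth muscle and 6 macrophage markers limma called 0, also with voom weights, while 3 and 1 of them had an unadjusted p under 0.05. The part of these shifts in the rise of Ankrd1 and Xirp2 was not tested. With each library scaled to the same sum of cardiomyocyte markers, an alternative added after the values were seen, the log2 fold change was 0.55 for Ankrd1, 0.36 for Xirp2, 0.20 for Xirp1 (adjusted p = 0.0054, limma) and 0.15 for Nrap (adjusted p = 0.0518, limma). That scaling turns on Ryr2, which was called lower itself and made up 37.1% to 44.5% of the sum. Scaled to the other 7 cardiomyocyte markers, the log2 fold change was 0.43 for Ankrd1 (adjusted p = 6.88e-05), 0.24 for Xirp2 (adjusted p = 0.000246), 0.08 for Xirp1 (adjusted p = 0.456), 0.03 for Nrap (adjusted p = 0.819), 0.08 for Ankrd23 (adjusted p = 0.793) and -0.033 for Csrp3 (adjusted p = 0.812, limma).

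Partners and regulators of the 7 genes were read from 6 lists with 73 genes. The test called 7 of them higher and 1 lower, beside 7.91% of all tested genes called. Among 10 genes listed as titin spring genes or other partners of the ankyrin repeat proteins, 1 was called. This was Casq2, the calcium-binding calsequestrin of the sarcoplasmic reticulum and not a titin spring protein, with 934 ± 21.5 in WT and 1113 ± 61.0 in Mettl3 KO hearts (log2 fold change 0.25, adjusted p = 0.000697, limma). Ttn, the giant spring to which the ankyrin repeat proteins bind, had 71020 ± 2289 and 72294 ± 4177 (adjusted p = 0.747, limma). Mypn, the myopalladin gene at the same I-band site, had 760 ± 71.3 and 741 ± 39.9 (adjusted p = 0.818, limma). The list's median log2 fold change was -0.011.

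Of 17 genes of Z-disc stretch sensing and anchoring, 3 were called higher and 0 lower, with a list median of 0.12. With voom weights 2 were called, since Smpx no longer passed. Pdlim3, the actinin-associated LIM protein gene, had 98.0 ± 2.71 in WT and 163 ± 37.4 in Mettl3 KO hearts (log2 fold change 0.69, adjusted p = 0.000796, limma). Flnc, the filamin C gene, had 1632 ± 84.8 and 1897 ± 102 (0.22, adjusted p = 0.00235), and Smpx, a small muscle protein gene, 293 ± 10.1 and 337 ± 18.9 (0.20, adjusted p = 0.0403). Tcap, the telethonin gene and a partner of muscle LIM protein, had 368 ± 22.4 and 393 ± 14.98 (adjusted p = 0.365, limma).

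Among 14 adherens junction and actin partners of the Xin and Nrap proteins, 0 were called higher and 1 lower (2 called in all with voom weights), with a list median of 0.012. Ctnna3, the alpha-T-catenin gene of the intercalated disc, fell from 590 ± 33.2 to 436 ± 49.99 (log2 fold change -0.44, adjusted p = 0.000206, limma). The partners Ctnnb1 (beta-catenin), Vcl (vinculin) and Klhl41 (a Kelch protein that binds Nrap) had adjusted p of 1, 0.832 and 0.683. None of the 5 family relatives (Csrp1, Csrp2, Neb, Nebl and Lasp1) was called by limma, with or without voom weights, and 0 had an unadjusted p under 0.05.

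Of 15 transcription factors and cofactors of these genes, 2 were called higher and 0 lower (3 called in all with voom weights). Tbx5 had 255 ± 22.1 in WT and 332 ± 24.9 in Mettl3 KO hearts (log2 fold change 0.38, adjusted p = 0.00116, limma), and Hand2 had 175 ± 12.8 and 220 ± 10.9 (0.32, adjusted p = 0.00645). Both are transcription factors of heart development. Srf, with 197 ± 8.42 and 220 ± 7.90 (adjusted p = 0.185), and Tead1, with 1379 ± 92.0 and 1293 ± 150 (adjusted p = 0.402), did not pass. Of 12 SRF and YAP target genes 1 was called higher and 0 lower, with a list median of 0.21. This was Ccn2, the connective tissue growth factor gene, with 210 ± 23.3 and 370 ± 52.1 (log2 fold change 0.81, adjusted p = 4.82e-06, limma), while Ccn1 had 181 ± 16.6 and 164 ± 18.03 (adjusted p = 0.391).

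**Figure D5:**
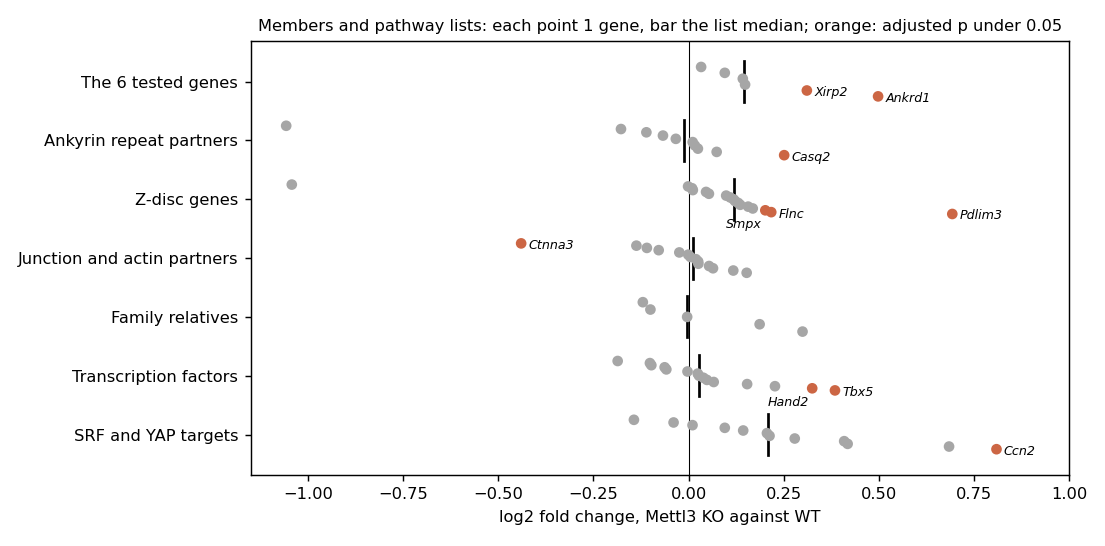
Log2 fold change (x axis) of the 6 tested genes and of the genes of 6 lists, 1 point per gene, with the list median as a black bar and called genes in orange with their names. Of 73 list genes 7 were called higher and 1, Ctnna3, lower.

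Among 12017 genes whose mean value reached 20, those whose log2 values followed a member most closely over the 8 libraries were named as a description. The closest to Ankrd1 were Fbxo22 (Pearson r = 0.99), Fastkd2 (0.99) and Phlda1 (0.99), and to Xirp2 they were Ywhag (0.99), Usp47 (0.98) and Ndufaf4 (0.98). These 6 genes had also been called higher, and the difference between genotypes enters each r. The closest to Xirp1 were Wdr1 (0.98), Cmya5 (0.97) and Ilrun (0.97), and to Nrap Dhrs7c (0.95), Mrpl17 (0.95) and Dhx38 (0.95). The closest to Csrp3 were the sarcomere genes Tnni3 (0.96), Nexn (0.95) and Myom1 (0.95), and to Ankrd23 they were Pced1a (0.95), Dcun1d5 (0.94) and Chmp6 (0.93).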

How the data were processed

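The 8 libraries held total RNA of hearts, stranded and read from 1 end. The authors trimmed reads with Trimmomatic 0.39, aligned them with STAR 2.7.11a to mm39, removed duplicates with Picard 3.1.1, counted exon reads by strand with featureCounts 2.0.4 and normalized with DESeq2. The deposited values are a score: normalized counts rounded to whole numbers, so tests for raw counts were not run. Removing duplicates of single-end reads lowers abundant short transcripts. This limits the levels per kb, the result for Csrp3 and the scaling to cardiomyocyte markers, and its size was not measured.

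Genes with a mean of at least 1 entered limma 3.58.1 (run in R 4.3.3) as log2(value + 1). The fit had genotype alone as its term and let the variance follow the mean, and tests were two-sided. Fold changes on this scale understate those of low genes. Library factors, and the reads behind the values, were estimated by maximum likelihood, value being reads times factor, rounded. Factors were 0.927 to 1.11. Both steps were tested on simulated data. Floors of 3 reads cover counting error only. The labels gave genotype and replicate number but name no animal for a sample, so p-values measure the spread between these samples.

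The genes and lists were chosen with earlier results of these data known. Named were the 7 genes, Mettl3, called list genes (up to 6 a list), direct partners and, for each gene, the 3 with the highest Pearson r. Srf, Tead1 and Ccn1 were named after their values were seen. Promoter windows came from RefSeq GRCm38.p6, and transcript lengths from GENCODE M21 of that build, matched by gene identifier. Alternatives were pseudocounts, filters, scalings, voom weights, robust empirical Bayes, the replicate number as a block and each library left out. Those scaled to cardiomyocyte markers, with and without Ryr2, without Mettl3 KO replicates 1 and 3, and over 3 ratios were added after seeing the data.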

Additional observations from a re-analysis of the deposited data

Results flagged for a closer look

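The log2 ratio of Ankrd23 to Ankrd1 in WT hearts had 1 library apart from the others. WT replicate 3 was at -3.68, while the other three lay between -3.89 and -3.87, and its gap to the nearest took a share of 0.916 of the whole range, more than the 95% limit of Dixon's test allows. It was the library with the lowest Ankrd1 value, 677. Of 26 groups of 4 libraries examined this was 1, and chance gives about 1.3. Without it the difference in this ratio between genotypes was -0.30.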

How the results depend on the processing

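Under 21 alternatives, Ankrd1 (log2 fold change 0.41 to 0.55, adjusted p up to 0.0162) and Xirp2 (0.22 to 0.36, adjusted p up to 0.0038) were called each time, and Ankrd23 (0.08 to 0.20), Csrp3 and Nrap were called in none. Xirp1 was called in 4, with a log2 fold change of 0.13 with voom weights, 0.14 with robust empirical Bayes, 0.17 without Mettl3 KO replicate 4 and 0.20 scaled to cardiomyocyte markers, which turned to 0.08 and no call when Ryr2 was left out of the markers. Its adjusted p ran from 0.0054 to 0.591 over the 21. Csrp3 changed sign, to -0.033, when scaled to the markers without Ryr2, and neither value was called. With each library left out in turn, 2 to 3 of the genes were called, and over all genes 1019 to 1596 were called against 1607 with all 8, the lowest without Mettl3 KO replicate 3. Without Mettl3 KO replicates 1 and 3, 674 were called, with fewer samples in the fit.

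The ratios of Ankrd23 to Ankrd1 and of Xirp2 to Xirp1 passed, with unchanged direction, with a pseudocount of 4 (-0.35 and 0.17, adjusted p = 0.0476 for both, exact test), without WT replicate 1 and over the 3 ratios without Ankrd2 (-0.35 and 0.17, adjusted p = 0.0429). With a library left out they ran from -0.40 to -0.27 and from 0.16 to 0.18, and Nrap to Csrp3 from 0.04 to 0.09. The adjusted p with a pseudocount of 4 and without WT replicate 1 takes in the Ankrd2 ratios, which cannot be interpreted.

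Same-numbered samples did not deviate together (r of 0.05, 0.04, -0.04 and 0.09 over 12027 genes), so the numbers were not taken as pairs. With the replicate number as a block 1346 genes were called and the same 2 members, Ankrd1 (adjusted p = 0.0010) and Xirp2 (adjusted p = 0.0011). With 4 pairs the blocked exact test of the ratios is too small to pass the threshold and says nothing about them. Depth limits Ankrd2, which is at the floor.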

Other observations

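METTL3 places m6A mostly within a short sequence context of which GGACT is a frequent form. GGACT was counted in the longest coding transcript of each gene (GENCODE M21), as letters only, with no measurement of m6A. Per kb, it was found 0.99 times in Ankrd1, 1.09 in Xirp2, 1.54 in Xirp1, 1.09 in Nrap, 2.20 in Ankrd23 and 2.64 in Ankrd2, and in Csrp3 it was not found in 899 bases. The median of 14374 tested genes was 1.05 per kb, and the 2 genes that rose were close to it. Other forms of the context, and exons outside the longest coding transcript, were not searched. For Csrp3 that transcript has 899 bases, against 2671 over all annotated exons. Whether the motif bears on the changes was not tested. Among these 14374 genes the median was 1.06 per kb for 913 called higher and 1.02 for 524 called lower.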
